A study of Mus musculus with 28 samples.

Results

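Sodium uptake in the collecting duct was followed through 8 genes of 45706 in the tables of gene expression, the rows that map to Scnn1a, Scnn1b, Scnn1g, Nedd4l, Sgk1, Nr3c2, Hsd11b2 and Atp1b1. The genes were chosen by name, for their place in the pathway of the epithelial sodium channel ENaC. No measured value entered the rule, though earlier results of these data were known. The cells were wild-type mIMCD-3, epithelial cells taken from the inner medulla of the kidney, where collecting ducts end, of a mouse transgenic for a viral large T antigen, grown in medium with serum and without genome editing. RNA was taken after the cells had stood confluent for days, from 4 libraries each of polyclonal WT cells, of the monoclonal line WT5, which grew from 1 sorted cell, and of subclones 1 to 5, each grown from 1 cell sorted from WT5. Every line other than polyclonal WT is thus a single clone. Polyclonal WT cells were read as short single-end reads and WT5 as longer paired-end reads at another date, so that line and sequencing run cannot be told apart. The subclones stand in a table without WT5, so that what every subclone shares against WT5 and what sets the tables apart cannot be told apart. Libraries of a line are called biological replicates in one place of the study and technical replicates in another, and p-values measure only the spread between these libraries.

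ENaC lets sodium enter the apical side of principal cells and is built from an alpha, a beta and a gamma subunit, which Scnn1a, Scnn1b and Scnn1g encode. Aldosterone binds the mineralocorticoid receptor, the product of Nr3c2, which raises transcription of targets such as Sgk1, and the kinase SGK1 phosphorylates the ubiquitin ligase NEDD4-2, the product of Nedd4l, and so keeps it from removing ENaC from the membrane. HSD11B2 inactivates glucocorticoids that would otherwise occupy the receptor, and the Na,K-ATPase, whose beta 1 subunit is the product of Atp1b1, pumps the sodium out on the basolateral side.

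Promoter windows are shown for Sgk1, a gene known for its steroid response, and for the neighbours Scnn1g and Scnn1b, of which the first varied most among the ENaC genes and the second was close to 0. Each runs from 250 bases before to 50 bases after an annotated RefSeq start on GRCm38.p6, and 5 of the 8 genes matched the table, with 10 windows. The letters searched were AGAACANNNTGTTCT, an inverted repeat of the half-site AGAACA bound by steroid receptors, which reads the same on both strands. Of 32851 windows 3 hold it, or 0.00913%, and they belong to Acnat2, Gm35041 and Sgk1. In the Sgk1 window at chr10:21993640-21993939 on the plus strand, 1 of 6 Sgk1 windows, the match stands in capitals and begins 189 bases before the start. The windows of Scnn1g at chr7:121734229-121734528 and of Scnn1b at chr7:121864788-121865087, both on the plus strand, do not hold these letters, nor do those of Nr3c2 and Atp1b1. A match is a description of the letters, and the tables of TPM do not tell which Sgk1 start was in use.
Sgk1: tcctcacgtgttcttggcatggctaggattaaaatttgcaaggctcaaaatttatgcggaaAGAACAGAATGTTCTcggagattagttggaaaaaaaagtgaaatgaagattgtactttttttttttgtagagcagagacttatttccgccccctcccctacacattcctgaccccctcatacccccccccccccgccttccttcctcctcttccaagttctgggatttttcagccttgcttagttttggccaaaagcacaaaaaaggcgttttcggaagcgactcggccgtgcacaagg
Scnn1g: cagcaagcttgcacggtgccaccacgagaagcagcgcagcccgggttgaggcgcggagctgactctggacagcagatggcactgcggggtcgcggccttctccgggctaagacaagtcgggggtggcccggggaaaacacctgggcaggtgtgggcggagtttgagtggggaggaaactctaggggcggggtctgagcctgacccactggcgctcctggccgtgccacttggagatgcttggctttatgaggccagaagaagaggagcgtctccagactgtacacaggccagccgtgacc
Scnn1b: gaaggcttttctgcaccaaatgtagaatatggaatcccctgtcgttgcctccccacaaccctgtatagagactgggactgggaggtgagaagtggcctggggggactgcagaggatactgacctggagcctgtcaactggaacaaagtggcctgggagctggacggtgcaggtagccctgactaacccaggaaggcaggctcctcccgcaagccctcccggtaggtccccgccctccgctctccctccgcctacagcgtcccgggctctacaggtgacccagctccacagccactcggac

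Values are TPM as deposited, in which a gene's reads are divided by its length and scaled to a fixed total per library, so that levels can be set beside each other between genes while the depth is unknown. Tests used log2(TPM) turned into z-scores within each library and limma, and a gene is said to pass at an adjusted p below 0.01 (Benjamini-Hochberg over all genes tested). Of 13 principal cell markers, which include the ENaC genes and Hsd11b2, 6 had a mean of at least 1 TPM in polyclonal WT cells and 3 in each other line. The principal cell markers Aqp2 and Kcnj1 had a mean of 0 TPM in every line, and Avpr2, the vasopressin V2 receptor gene, had a mean of 10.6 TPM in polyclonal WT but of 0.06 TPM in WT5. Of the 6 markers with at least 1 TPM in polyclonal WT, Avpr2, Gata3 (4.08 to 0.04 TPM), Scnn1a and Scnn1g had lower means in WT5. Tfcp2l1 (8.04 to 10.2 TPM, adjusted p = 0.195, limma) and Hsd11b2 had higher means in WT5. Of 9 markers of the inner medullary collecting duct, Epcam, Krt18, Cdh16 and Pax2 had a mean of at least 1 TPM in every line, Slc14a2 did in subclones 4 and 5 alone, and Aqp2, Aqp3, Aqp4 and Hoxd10 in none. The summed level of 4 endothelial markers was at most 0.29 TPM, that of 4 fibroblast markers at most 2.11 TPM and that of 8 intercalated cell markers at most 1.85 TPM in any library. Leukocyte markers summed to between 1.52 and 4.68 TPM, and 3 distal convoluted tubule markers to between 1.3 and 4.81 TPM. The sums were 4.28 to 11.46 TPM for 6 proximal tubule markers. They were 16.69 to 30.19 TPM for 4 thick ascending limb markers, with Slc12a1 and Cldn10 at or near 0. Of the latter, Umod, the uromodulin gene, had means of 0.0675 TPM in polyclonal WT, 3.38 TPM in WT5 and 11.6 TPM in subclone 5. In subclones 1 to 4 its means were 2.17, 2.12, 2.73 and 4.64 TPM. Kcnj16, another of these markers, was lower in WT5 (14.2 TPM) than in polyclonal WT (19.0 TPM). Its lowest subclone mean was 15.2 TPM, in subclone 5. The part of Umod and Kcnj16 in the values of the members was not tested. Subclone 3 replicate 2 and subclone 5 replicate 1 stood farthest from their groups over all genes, at distances of 50.2 and 49.1 against 31.5 to 43.1 for the other libraries.

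Between WT5 and polyclonal WT cells, each of the 7 genes that could be tested passed, where 65.5% of 13723 genes did. Nedd4l, Sgk1, Nr3c2 and Hsd11b2 were higher in WT5, 4 of 7 against 34.5% of all genes, and Scnn1a, Scnn1g and Atp1b1 were lower, 3 of 7 against 30.9%. Only Nr3c2 also had a z-score difference above 1, a size that 5.43% of all genes reached. WT5 and polyclonal libraries did not overlap for any of the 7. The share of all genes without such overlap was not counted, so this cannot be read as particular to these genes. The median over all genes was a log2 difference of 0.24 and a z-score difference of 0.0099. In these bulk samples a smaller share of cells that express a gene and less RNA of it per cell cannot be told apart, and the part of the lower Avpr2 level or of other principal cell markers in these values was not tested.

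**Figure D1:**
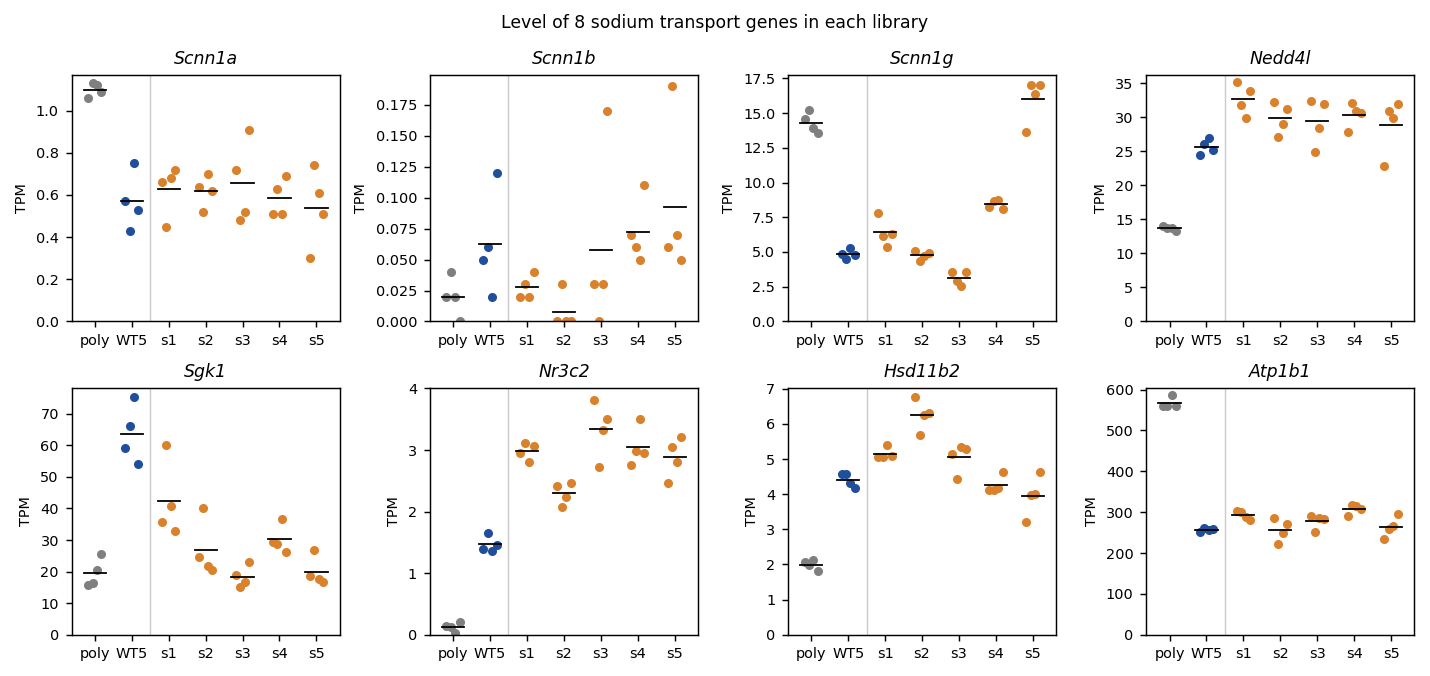
TPM of the 8 genes (vertical axes, linear, each with its own range) in the 28 libraries, with polyclonal WT (poly) in grey, WT5 in blue and subclones 1 to 5 (s1 to s5) in orange; points are libraries, black lines are means of 4, and the grey vertical line separates the tables. Scnn1g spreads from a mean of 3.16 TPM in subclone 3 to 16.0 TPM in subclone 5, while Scnn1a in all clones lies below polyclonal WT.

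Scnn1g, on chromosome 7 from 121734479 to 121768475 (GRCm38), had the widest range of levels among the ENaC genes, with group means from 3.16 to 16.0 TPM. Polyclonal WT libraries 1 to 4 had 14.54, 15.21, 13.92 and 13.53 TPM, and WT5 libraries had 4.82, 4.51, 5.29 and 4.78 TPM. The polyclonal mean was 2.95-fold that of WT5, and the z-score difference, WT5 minus polyclonal WT, was -0.578 (standard error 0.0212, adjusted p = 2.36e-07, limma). Subclones of WT5 lay on both sides of it. Subclone 5 had 13.65, 17.01, 16.36 and 17.05 TPM, subclone 4 had 8.22, 8.66, 8.72 and 8.13 TPM, and subclone 1 had 7.83, 6.17, 5.38 and 6.3 TPM. All of these libraries lay above every WT5 library, and those of subclone 5 overlapped the polyclonal ones. Subclone 2 had 5.08, 4.37, 4.71 and 4.93 TPM, of which 3 lay within the range of WT5 and 1 below it, and subclone 3 had 3.55, 2.9, 2.58 and 3.59 TPM, below every WT5 library.

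Against WT5, Scnn1g was 3.30-fold in subclone 5 (z-score difference 0.588, standard error 0.0286, adjusted p = 8.63e-12, limma), 1.74-fold in subclone 4 (adjusted p = 3.40e-07) and 1.32-fold in subclone 1 (adjusted p = 0.00148). In subclone 3 it was 0.651-fold (adjusted p = 4.32e-06), and in subclone 2 the difference of -0.00953 in z-score did not pass (adjusted p = 0.822). With the unequal-variance test subclones 1 and 3 did not pass (adjusted p = 0.0757 and 0.0103), nor did subclone 1 when fitted with WT5 alone (0.0263). The gamma subunit gene was the sole member for which subclones passed in opposite directions. Within the subclone table, without WT5, Scnn1g differed by the F test (adjusted p = 2.92e-11) and in all 10 pairs of subclones, with 9.7% of gene and pair combinations passing over all genes. Subclone 5 had 5.08-fold the level of subclone 3. From high to low the means ran subclone 5, polyclonal WT, subclone 4, subclone 1, WT5, subclone 2 and subclone 3, and only subclone 5 with polyclonal WT and WT5 with subclone 2 overlapped among neighbours.

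Scnn1a, the alpha subunit gene on chromosome 6 from 125320659 to 125344943, was lower in WT5 than in polyclonal WT and did not differ past the test between WT5 and its subclones. It had 1.06, 1.13, 1.12 and 1.09 TPM in the polyclonal libraries and 0.57, 0.43, 0.75 and 0.53 TPM in those of WT5. The polyclonal mean was 1.93-fold that of WT5 (z-score difference -0.399, standard error 0.0509, adjusted p = 0.00019, limma). The 20 subclone libraries lay between 0.3 and 0.91 TPM, all below polyclonal WT. Their means, from 0.54 to 0.658 TPM, gave no subclone past the test against WT5, with adjusted p between 0.515 and 0.867, and the F test among subclones did not pass either (adjusted p = 0.688). The log2 difference from WT5 was between -0.12 (standard error 0.33) in subclone 5 and 0.19 (standard error 0.27) in subclone 3, and with such errors a log2 difference like the 0.39 of Scnn1g in subclone 1 was not detectable.

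Scnn1b, the beta subunit gene on chromosome 7 from 121865038 to 121918514, starts 96.563 kb past the end of Scnn1g and was close to 0 in every line. Polyclonal WT libraries had 0.02, 0.04, 0.02 and 0 TPM and WT5 libraries had 0.05, 0.06, 0.02 and 0.12 TPM. Subclone 2 was listed at 0 in 3 libraries and at 0.03 TPM in the other, and subclone 5 had 0.06, 0.19, 0.07 and 0.05 TPM. The highest value of Scnn1b in any library was 0.19 TPM, below the lowest value of Scnn1a in any library. As Scnn1b was at 0 in some libraries of each table, it entered none of the limma comparisons. Cog7 lies over part of Scnn1b on the opposite strand with a group mean of up to 27.5 TPM, and whether the libraries kept strand is not given in the sources used here.

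Per length, the 3 ENaC transcripts were thus far from equal. In a single library the ratio of Scnn1a to Scnn1g TPM averaged 0.0771 in polyclonal WT, 0.117 in WT5, 0.206 in subclone 3 and 0.0332 in subclone 5. The log2 ratio of subclone 5 was 1.84 below and that of subclone 3 was 0.82 above WT5. The 4 libraries of each of these subclones did not overlap those of WT5 (exact permutation test, two-sided, p = 0.0286 for each, the smallest that 70 assignments allow). Of 28 such tests of ratios 15 reached this p, which was 0.0533 after adjustment, so that no ratio passed 0.05.

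Nedd4l, whose product marks ENaC for removal, went against Scnn1a and Scnn1g from polyclonal WT to WT5. It had 14.06, 13.68, 13.76 and 13.35 TPM in the polyclonal libraries and 24.45, 26.07, 26.93 and 25.21 TPM in those of WT5, a 1.87-fold rise (z-score difference 0.221, standard error 0.012, adjusted p = 1.69e-06, limma). The subclones had means between 28.9 and 32.7 TPM, with single libraries from 22.86 to 35.19 TPM. By z-score Nedd4l was higher than WT5 in 5 of 5 subclones, with adjusted p between 3.95e-05 in subclone 1 and 0.00145 in subclone 5, where 5.35% of all genes were higher in all 5. The log2 differences of 0.16 to 0.35 were small, and without z-scores only subclone 1 passed, with adjusted p of 0.0919, 0.12, 0.0485 and 0.199 in subclones 2 to 5. With the unequal-variance test subclones 3 and 5 did not pass (adjusted p = 0.0237 and 0.0591). Among the subclones Nedd4l differed neither by the F test (adjusted p = 0.471) nor in any of the 10 pairs. The lowest Nedd4l values in subclones 3 and 5, 24.87 and 22.86 TPM, came from the pair of libraries that stood apart.

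Sgk1, on chromosome 10 from 21882184 to 21999903, had its highest mean in WT5. In polyclonal WT the libraries had 15.62, 16.5, 20.57 and 25.6 TPM and WT5 libraries had 59.17, 66.12, 75.18 and 54.09 TPM, a 3.25-fold rise (z-score difference 0.487, standard error 0.0559, adjusted p = 0.000104, limma). All subclone means were below that of WT5. Subclone 3 had 18.8, 15.12, 16.76 and 23.07 TPM and subclone 5 had 18.51, 26.93, 17.52 and 16.73 TPM, both overlapping polyclonal WT. Subclone 4 had 29.22, 28.72, 36.75 and 26.36 TPM and subclone 2 had 24.59, 40.02, 21.76 and 20.59 TPM, all below every WT5 library. Subclone 1 had 35.8, 60.08, 40.81 and 32.78 TPM, of which the second library overlapped WT5.

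Against WT5, Sgk1 passed in subclones 2, 3, 4 and 5, with log2 differences of -1.29, -1.79, -1.07 and -1.69 and adjusted p of 0.000179, 2.82e-06, 0.000762 and 8.22e-06 (limma). Subclone 1, at 0.666-fold of WT5, did not pass (adjusted p = 0.0473), nor did subclone 2 with the unequal-variance test (adjusted p = 0.0341). Over all genes 5.61% were lower than WT5 in all 5 subclones, a group that Sgk1 thus missed by subclone 1. Among the subclones, Sgk1 differed by the F test (adjusted p = 0.00363), and subclones 3 and 5 each differed from subclone 1 while the other 8 pairs did not pass. This F test no longer passed without the 2 libraries that stood apart (adjusted p = 0.0125) or without subclone 1 replicate 3 (adjusted p = 0.0102). With the unequal-variance test the difference among subclones did not pass either (adjusted p = 0.026). The ratio of Sgk1 to Nedd4l within a library was 1.43 in polyclonal WT, 2.47 in WT5 and between 0.624 and 1.31 in the subclones, and the ratios of each subclone lay below those of WT5 (exact permutation test, p = 0.0286, adjusted p = 0.0533).

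**Figure D2:**
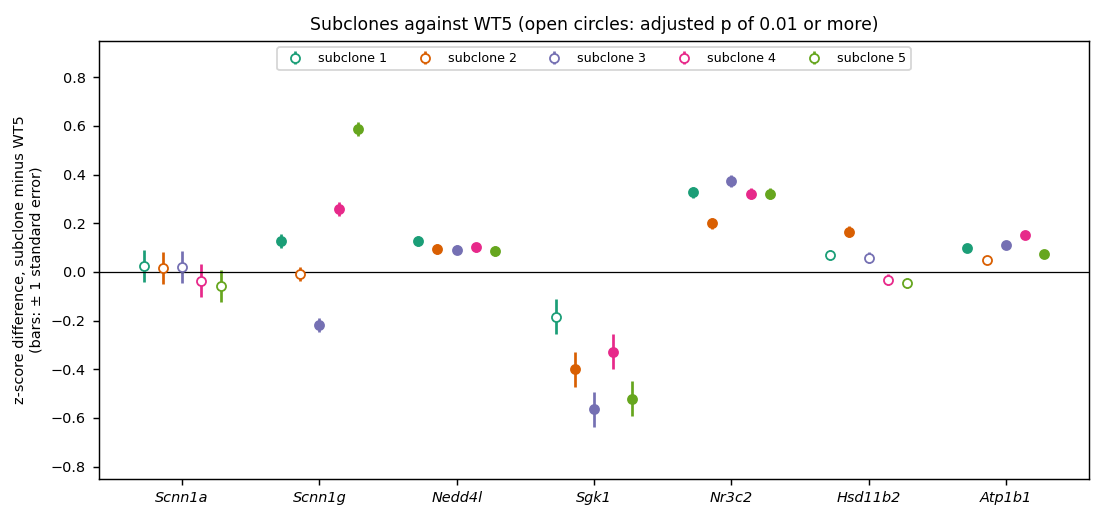
Difference in z-score of log2(TPM) between each subclone and WT5 (vertical axis, bars ± 1 standard error) for the 7 genes tested, with 1 colour per subclone and open circles where the adjusted p was 0.01 or more. Nr3c2 lies above and Sgk1 below 0 in every subclone, while Scnn1g runs from -0.219 in subclone 3 to 0.588 in subclone 5.

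Nr3c2, the mineralocorticoid receptor gene on chromosome 8 from 76899442 to 77245012, had the largest z-score difference of the members between WT5 and polyclonal WT without a pseudocount. It had 0.15, 0.12, 0.03 and 0.21 TPM in the polyclonal libraries and 1.4, 1.65, 1.36 and 1.46 TPM in those of WT5. The mean was 11.5-fold in WT5 (z-score difference 1.15, standard error 0.179, adjusted p = 0.000589, limma), and without polyclonal replicate 3, the library at 0.03 TPM, the z-score difference was 0.955. With a pseudocount of 1 it was 0.397, smaller in size than those of Scnn1g (-0.667), Sgk1 (0.629) and Atp1b1 (-0.556). With the unequal-variance test Nr3c2 missed the threshold (adjusted p = 0.016). The subclones lay higher still, between 2.08 and 3.82 TPM, without overlap with WT5. Subclone 2 had 1.57-fold and subclone 3 had 2.28-fold the level of WT5, and all 5 subclones passed. Within the subclone table Nr3c2 differed by the F test (adjusted p = 0.0001), where subclone 2, with 2.42, 2.08, 2.23 and 2.46 TPM, was lower than each of the other 4 and no other pair passed.

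Hsd11b2, on chromosome 8 from 105518755 to 105523988, rose with Nr3c2 from polyclonal WT to WT5. It had 2.06, 1.98, 2.12 and 1.82 TPM in the polyclonal libraries and 4.57, 4.57, 4.33 and 4.18 TPM in those of WT5, a 2.21-fold difference (z-score difference 0.292, adjusted p = 5.93e-06, limma). Among the subclones it took another order than Nr3c2. Subclone 2, lowest in Nr3c2, was highest in Hsd11b2 with 6.78, 5.69, 6.25 and 6.32 TPM, which was 1.42-fold of WT5 (adjusted p = 4.95e-06) and the only subclone that passed. Subclones 4 and 5 had means of 4.27 and 3.95 TPM, on the lower side of WT5 (adjusted p = 0.23 and 0.083). The F test among subclones passed (adjusted p = 4.14e-06), and 7 of 10 pairs did. Under other settings subclones 1 and 3 passed too, for example with a pseudocount of 1 (adjusted p = 0.00779 and 0.00816).

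Atp1b1, on the minus strand of chromosome 1 from 164437109 to 164458355, was the most abundant of the 8 transcripts in every line. It had 559.41, 560.62, 585.88 and 559.18 TPM in the polyclonal libraries and 251.01, 261.15, 256.8 and 258.7 TPM in those of WT5. The polyclonal mean was 2.20-fold that of WT5 (z-score difference -0.426, standard error 0.0108, adjusted p = 3.95e-08, limma). All subclone libraries lay between 221.19 and 317.72 TPM, far below polyclonal WT. Against WT5 the z-scores of subclones 1, 3, 4 and 5 passed, but the log2 differences were 0.19, 0.11, 0.26 and 0.03, and without z-scores subclone 4 alone did, with adjusted p of 0.0532, 0.223 and 0.751 in subclones 1, 3 and 5. In subclone 2 the z-score difference was 0.0493 and the log2 difference -0.01, and neither passed. With the unequal-variance test subclones 3 and 5 did not pass against WT5 (adjusted p = 0.0177 and 0.0305). Among subclones the F test passed (adjusted p = 0.00217), although not without z-scores (0.0743) or with the unequal-variance test (0.0247), and subclone 4 was higher than subclones 2 and 5. Nme7 lies over Atp1b1 on the opposite strand with a group mean of up to 48.6 TPM.

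**Figure D3:**
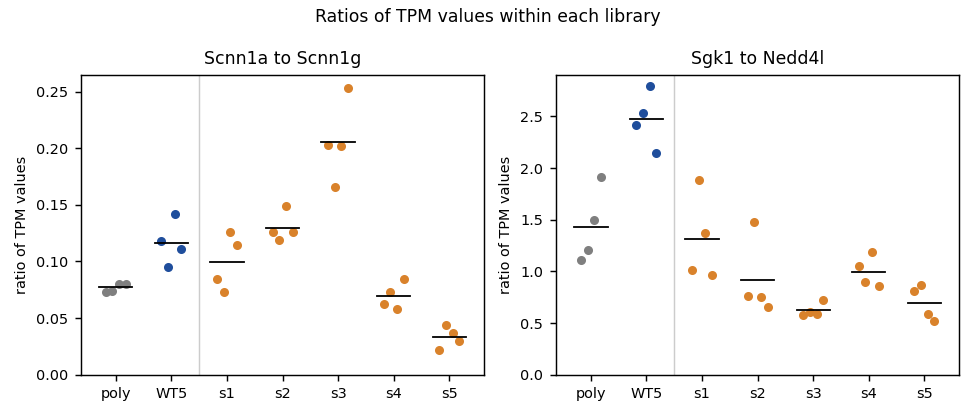
Ratios of TPM values within each library (vertical axes, linear) for Scnn1a to Scnn1g and Sgk1 to Nedd4l, with polyclonal WT in grey, WT5 in blue and subclones 1 to 5 in orange; points are libraries and lines are means of 4. The Scnn1a to Scnn1g ratio is highest in subclone 3 (0.206) and lowest in subclone 5 (0.0332).

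Counted over the 7 genes tested, 4, 4, 5, 5 and 5 passed against WT5 in subclones 1 to 5, where 26%, 26%, 32.3%, 37.1% and 30.1% of 13860 genes did. The 5 comparisons share the WT5 libraries. Among the subclones 5 of the 7 genes passed the F test, where 24.6% of 14031 genes did, with Scnn1a and Nedd4l as the other two. None of the members reached a z-score difference of 1 in any subclone.

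Other genes of the pathway were counted from lists of 94 genes, of which 66 could be tested between WT5 and polyclonal WT. Of these 29 were higher in WT5, 20 were lower and 17 did not pass, where over all genes 65.5% passed, 34.5% higher and 30.9% lower, with a median z-score difference of 0.0634 beside 0.0099 for all genes. Plat, Fxyd5, Slc9a5 and Slc4a4 also exceeded a z-score difference of 1, all of them higher in WT5, 4 of 66 beside 5.43% of all genes. Plat encodes tissue plasminogen activator, and its level went from 6.65 ± 0.285 to 77.8 ± 1.87 TPM (z-score difference 1.08, adjusted p = 3.36e-09, limma). Fxyd5, which encodes a small regulator of the Na,K-ATPase, went from 0.0975 ± 0.025 to 4.59 ± 1.73 TPM, and Slc4a4, a sodium bicarbonate cotransporter gene, from 0.11 ± 0.0271 to 3.53 ± 0.0978 TPM. Slc9a5, a sodium proton exchanger gene, went from 0.205 ± 0.0342 to 2.29 ± 0.159 TPM. These 4 are the largest among tested genes only, as a list gene at 0 in any library compared was left out of the test. Of the list genes left out, only Slc9a2 and Pcsk6 reached a mean of 1 TPM in either line. From polyclonal cells to WT5 the mean of Slc9a2 rose from 0.0125 to 5.43 TPM and that of Pcsk6 from 0.0075 to 1.8 TPM. Of those that fell, Fxyd3 had the highest polyclonal mean, 0.42 TPM, with 0.03 TPM left in WT5.

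By list, all 9 tested genes of proteases and their inhibitors passed, 6 higher and 3 lower, and each list count is to be read beside the 65.5% of all genes that passed. Of 10 genes for steroid receptors, steroid enzymes and their targets, Nr3c2, Sgk1 and Hsd11b2 included, 6 were higher and 1 lower. The lower one was Tsc22d3, a glucocorticoid target also known as Gilz, which went from 35.4 ± 2.17 to 16.3 ± 0.629 TPM (z-score difference -0.429, adjusted p = 1.08e-06, limma). Sgk1 and Tsc22d3 are both targets of corticosteroid receptors and moved in opposite directions. Of the other tested targets on this list, Fkbp5 and Klf9 were higher in WT5 and Per1, Dusp1 and Usp2 did not pass. Of 14 ubiquitin ligases, deubiquitinases and adaptors, 5 were higher and 6 lower, with z-score differences from -0.429 for Tsc22d3 to 0.221 for Nedd4l. Kinases upstream of ENaC and SGK1 gave 6 higher and 3 lower of 13, among them Prr5l, a gene for a partner of mTOR complex 2, which went from 1.21 ± 0.246 to 3.98 ± 1.00 TPM.

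In the WNK and SPAK list 2 genes were higher and 3 lower of 8. Stk39, which encodes the kinase SPAK, was 5.83-fold higher in WT5 and Cul3, a ubiquitin ligase scaffold gene, was 1.61-fold higher in polyclonal WT. The Na,K-ATPase and FXYD list had 1 gene higher and 3 lower of 5, and other sodium transporters had 6 higher and 1 lower of 11. Of 4 chromatin regulators of Scnn1a, 2 were higher and 2 lower. Mllt10 (Af10) went from 13.6 ± 0.822 to 45.5 ± 5.51 TPM and Mllt3 (Af9), whose product represses Scnn1a together with DOT1L, from 40.0 ± 2.46 to 17.9 ± 1.13 TPM. Dot1l itself went from 17.1 to 38.4 TPM.

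**Figure D4:**
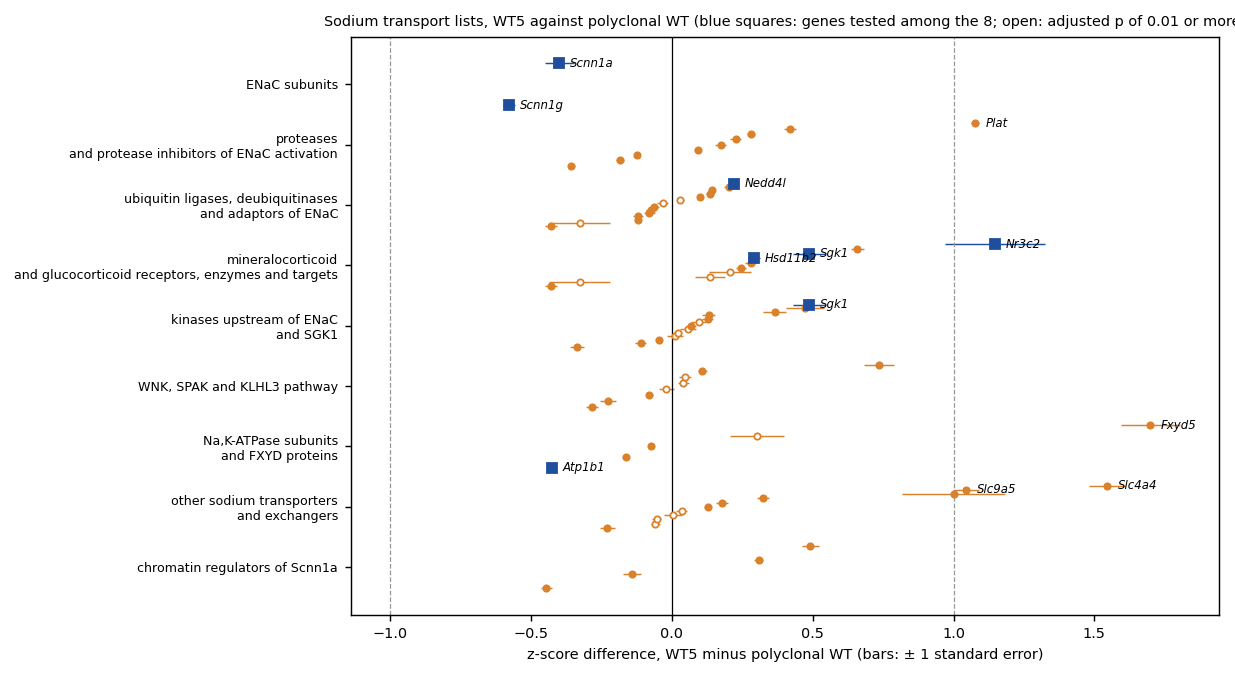
Difference in z-score of log2(TPM), WT5 minus polyclonal WT (horizontal axis, bars ± 1 standard error), for every tested gene of the pathway lists; blue squares are the 7 tested members, orange circles other genes, open symbols an adjusted p of 0.01 or more, and dashed lines a difference of 1. Genes past the right dashed line are labelled, from Slc9a5 at 1.04 to Fxyd5 at 1.70, and a gene on several lists is drawn on each.

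Among the subclones 24 of 71 list genes other than the members passed the F test, where 24.6% of all genes did. The 4 list genes with the largest F statistic were Scnn1g, Slc4a4, Stk39 and Plau. Slc4a4 had means of 9.62 ± 0.811 TPM in subclone 2 and 2.77 ± 0.472 TPM in subclone 5, against 3.53 TPM in WT5 (F test adjusted p = 2.55e-10, limma). Stk39 had 1.17 ± 0.159 TPM in subclone 2 and 5.03 ± 0.568 TPM in subclone 5 (adjusted p = 5.42e-10), and Plau, which encodes urokinase, had 95.7 ± 4.76 TPM in subclone 3 and 51.9 ± 2.26 TPM in subclone 5 (adjusted p = 4.17e-09). Subclone 5, with the highest mean of Scnn1g among the subclones, had the lowest means of Plau and Slc4a4 and the highest of Stk39. Subclone 3, with the lowest mean of Scnn1g, had the highest of Plau. Its Stk39 mean of 4.83 ± 0.25 TPM was close to that of subclone 5, and the libraries of both overlapped for Stk39. No gene of the lists exceeded a z-score difference of 1 between a subclone and WT5.

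The genes most like each member over the 20 subclone libraries, by Pearson's r of log2(TPM) with 10911 genes of at least 1 TPM searched, are given as a description. Scnn1g was followed by the chemokine gene Ccl5 (r = 0.963), with means of 17.4 TPM in subclone 3 and 40.1 TPM in subclone 5, and by Lgalsl (r = 0.947). Sgk1 was followed by the early response genes Klf6 (0.922) and Dusp2 (0.914), Nr3c2 by Bmp3 (0.905) and Tgm2 (0.878), and Hsd11b2 by Foxj1 (0.945) and Col4a3 (0.932). Nedd4l, Atp1b1 and Scnn1a, which varied less between subclones, had Bach1 (0.976) and Ints3 (0.965), Sod2 (0.936) and Acsl5 (0.934), and Tbc1d9b (0.847) and Pld2 (0.846) as their nearest. The points share 5 clones with 4 libraries each, and the libraries that stood apart contribute to each r.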

How the data were processed

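RNA sequencing of 28 libraries was used, 4 for each of 7 lines of mIMCD-3 cells. TPM values are as deposited by the authors, who aligned reads with STAR 2.7.3a to GRCm38 with an Ensembl annotation and quantified genes with RSEM 1.3.1. Their notes also name CASAVA 1.8. The depth of each library is unknown, since TPM does not carry it, and neither counting errors nor tests for read counts were used. Rows were given symbols and coordinates from GENCODE M21 on GRCm38, which lists 45143 of 45706 identifiers. The 2 tables were joined by identifier.

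Within each library, z-scores of log2(TPM) were taken with no pseudocount over genes with TPM above 0 in every library compared (13723, 13860 and 14031 genes). Groups were compared with limma 3.58.1 in R 4.3.3, two-sided, with Benjamini-Hochberg adjustment over all genes tested and thresholds of 0.01 on the adjusted p and, where stated, 1 on the z-score difference. WT5 and all subclones entered 1 fit, and the F test used the subclones alone. The study used an unequal-variance test, run here as an alternative. Ratios within a library were compared by exact permutation tests over libraries. Fits were tested on simulated data.

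Members, lists and tests were chosen with earlier results of these data known. Named list genes were those past both thresholds in any comparison with WT5, otherwise the 2 with the largest difference per list between WT5 and polyclonal WT, the 4 with the largest F, and the 2 most correlated genes per member. Slc9a2, Pcsk6 and Fxyd3, which could not be tested between WT5 and polyclonal WT, were named for their mean TPM. Genes cited as markers come from the marker lists. A further ratio that belongs to the family of tests is not reported here. Replicate numbers were not taken to pair libraries. Per library, 18681 to 19272 genes were above 0 in polyclonal WT and 16270 to 17004 in WT5 and the subclones. Of the 50-base stretches of each member's longest transcript, at most 0.164% occurred in another gene. Python 3.11.15 was used with pandas 2.3.3, scipy 1.17.1 and matplotlib 3.10.9.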

Additional observations from a re-analysis of the deposited data

Results flagged for a closer look

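In 5 of 56 groups of 4 libraries, the highest library lay apart from the rest by Dixon's criterion, which chance alone meets in about 1 of 20 groups. Scnn1b had 0.03 TPM in subclone 2 replicate 2, where the other libraries were at 0, and 0.19 TPM in subclone 5 replicate 2. Hsd11b2 had 5.4 TPM in subclone 1 replicate 3 and 4.63 TPM in subclone 4 replicate 4. Atp1b1 had 585.88 TPM in polyclonal replicate 3, which was still close to the other polyclonal libraries at 559.18 to 560.62 TPM.

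The subclones differed from one another by the F test of limma in Scnn1g (adjusted p = 2.92e-11), Hsd11b2 (4.14e-06), Nr3c2 (0.000100), Atp1b1 (0.00217) and Sgk1 (0.00363), within 1 table and without the WT5 libraries. Atp1b1 and Sgk1 did not pass with the unequal-variance test (adjusted p = 0.0247 and 0.026).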

How the results depend on the processing

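The count of 7 members past the adjusted p between WT5 and polyclonal WT was 7 whichever library was left out, and that of 23 member and subclone combinations against WT5 lay between 23 and 24. With the unequal-variance test these counts were 6 and 16, and without z-scores 7 and 16. The single member past both thresholds, Nr3c2, was lost with the unequal-variance test, pseudocounts of 0.1 and 1, a mean TPM of at least 1 and TPM above 0 in any library (0 members each), and the count lay between 0 and 1 with a library left out. When log2 differences replaced z-scores, 5 members exceeded 1. The 5 members that differed among subclones were 3 with the unequal-variance test and 4 to 5 with a library left out. Over the ratios 0 passed as reported, 0 to 0 with a library left out, and 19 with a pseudocount of 0.1, where Scnn1b ratios with a 0 enter the family. With 4 against 4 libraries the exact permutation test cannot give a p below 0.0286. A library left out raises this limit in the comparisons that use it. The counts of 0 therefore do not show that the ratios are stable. No called value changed direction. Leaving out subclone 3 replicate 2 and subclone 5 replicate 1 together was chosen after seeing the data.

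Same-numbered libraries did not deviate together, with correlations between -0.0097 and 0.0179 for WT5 and polyclonal WT and between -0.276 and 0.129 for WT5 and the subclones. With the replicate block the counts were 7, 23 and 5, and 0 ratios passed with replicate numbers paired, where the smallest p possible is above the threshold.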
